A study of Saccharomyces cerevisiae with 12 samples.

Results

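The late response of budding yeast (Saccharomyces cerevisiae) to hydrogen peroxide was compared with the unstressed state. Chosen by their titles, 5 of the 12 arrays of the series entered this comparison: the oxidative stress arrays at 100, 140 and 180 min, and the 0 min array of each of the 2 courses. All 5716 probe sets of the table other than its 184 controls were described. Cells grew in rich medium (YPD) at 25 °C to mid-log phase and then received either 0.3 mM H2O2 or 0.1% methyl methanesulfonate (MMS), an agent that methylates DNA. Total RNA sampled 0, 30, 60, 100, 140 or 180 min later was read on Affymetrix arrays, and each stress has a single array for each time. No strain or genotype is given in the labels. The 3 late time points stand in for replicates, and the spread behind each test is pooled over all 12 arrays. It thus holds the change within the late window, between 30 and 60 min of H2O2, and within the MMS course. Nothing states that the arrays came from separate cultures. The labels list no untreated culture sampled over the 180 min, so time after peroxide and time in culture cannot be told apart. Values are deposited log2 signals, and "time 0" below is the mean of both 0 min arrays.

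As background, peroxide oxidises cysteines and other groups, and yeast answers with 2 overlapping programmes. The transcription factors Yap1 and Skn7 switch on peroxidases, thioredoxins and detoxifying oxidoreductases. Msn2 and Msn4 switch on a general stress programme that includes small protective proteins and the stores of trehalose and glycogen, while genes for making ribosomes are turned down. In a culture that removes the oxidant, both programmes are known to be transient.

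The 12 array medians lay between 9.04 and 9.19 log2. Between the 0 min arrays the SD of the log2 difference over probe sets was 0.151, and 42 probe sets (0.735%) differed by more than 1.5-fold. Actin mRNA (ACT1) read 13.08 and 13.06 at 0 min of the H2O2 and MMS courses and 13.18, 13.20 and 13.12 at 100, 140 and 180 min, a late difference of 0.09 ± 0.08 log2 (SE, adjusted p = 0.419). The 3' minus 5' signal of ACT1, a guide to RNA integrity, stayed between 0.22 and 0.32 over the H2O2 arrays and the MMS 0 min array. For TDH1 it was 0.59 and 0.37 at 0 min and between 0.16 and 0.19 in the late window, where TDH1 itself rose by 2.33 ± 0.17 log2. For RIP1 it was 0.43 and 0.29 at 0 min and 0.42, 0.42 and 0.37 late. For WBP1 it was 0.78 and 0.73 and then 0.64, 0.83 and 0.79. The part of RNA integrity in the results was not tested.

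In the late window, 889 of 5716 probe sets (15.6%) differed from time 0 at a Benjamini-Hochberg adjusted p under 0.05 in limma's moderated test, 539 higher (9.43%) and 350 lower (6.12%). The rises were larger than the falls. Their median was 0.95 log2 and 254 of them were 2-fold or more in the window mean, against a median of -0.50 and 24 for the falls. At an unadjusted p under 0.05 there were 925 higher and 992 lower. The counts rest on having both 0 min arrays: without that of the H2O2 course 10 probe sets were called, and without that of the MMS course 5. Leaving out the 100 min array gave 251 calls, the 140 min array 154 and the 180 min array 915. All 889 kept their direction in each of these, but that outcome was fixed beforehand. The late arrays of every call lay outside both 0 min arrays, so leaving 1 out could not change the direction. Of the 198 genes that a rule chose for naming, 106 were called, and without the H2O2 0 min array 4 of them were (DDR2, GPM2, SPS4 and TSA2), without that of the MMS course 3 (DDR2, SPS4 and TSA2). Each array reads many cells together, so a change in the share of cells of a kind and a change of mRNA per cell cannot be told apart.

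The departure from time 0 shrank through the window. At 60 min 535 probe sets (9.36%) had stood 2-fold or more above time 0 and 466 (8.15%) as far below. At 100 min 374 (6.54%) stood 2-fold or more above time 0 and 223 (3.9%) as far below. At 140 min the counts were 309 (5.41%) and 57 (0.997%), and at 180 min 205 (3.59%) and 31 (0.542%). The low side thus emptied more than the high side in these single arrays. Of the 539 called rises, 422 were closer to time 0 at 180 than at 100 min, as were 290 of the 350 called falls. At 180 min 190 of the called rises were still 2-fold or more above, 185 lay between 1.5- and 2-fold and 164 within 1.5-fold. Of the called falls 20 were still 2-fold or more below, 41 lay between 1.5- and 2-fold and 289 within 1.5-fold.

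**Figure D1:**
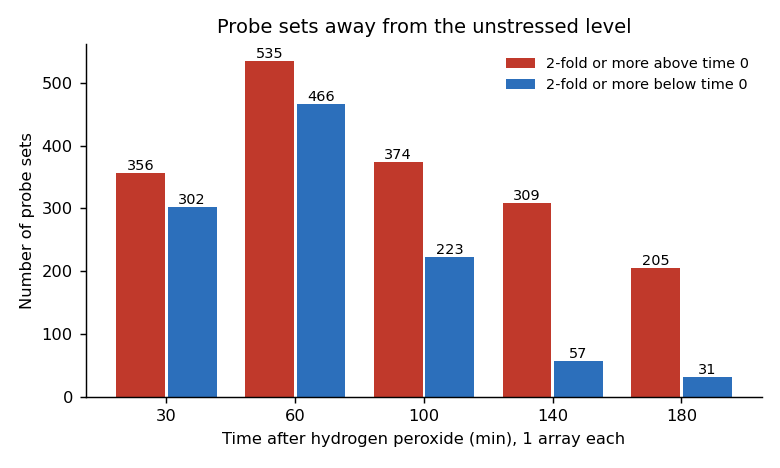
Bars give the number of the 5716 probe sets that stood 2-fold or more above (red) or below (blue) the mean of the 0 min arrays, against minutes after hydrogen peroxide, with 1 array per time. The high side went from 535 at 60 min to 205 at 180 min and the low side from 466 to 31.

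To describe the return, a probe set was called away early if it stood 2-fold or more from time 0 at 30 or 60 min. There were 598 above (10.5% of all) and 527 below (9.22%). At 180 min it was called back within 1.5-fold (0.58 log2) of time 0, still away at 2-fold or more on the same side, between these limits, or past if it lay beyond 1.5-fold on the other side. These classes come from single arrays and carry no test. Of those above early, 294 (49.2%) were back at 180 min, 133 (22.2%) between, 163 (27.3%) still away and 8 (1.34%) past. Of those below early, 476 (90.3%) were back, 29 (5.5%) between, 17 (3.23%) still away and 5 (0.949%) past. A further 40 probe sets were 2-fold above and 12 were 2-fold below at 180 min without having been so at 30 or 60 min.

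The size of the early change differed between these classes. The median of the larger early value was 2.34 log2 among the 163 still above and 1.37 among the 294 back from above, against -1.95 among the 17 still below and -1.54 among the 476 back from below. Timing differed by side: 116 of the 294 were already within 1.5-fold at 100 min, 75 first at 140 min and 103 first at 180 min, whereas 72, 143 and 261 of the 476 were. Being back did not mean being level. The 180 min array still lay outside both 0 min arrays on the early side for 195 of the 294 (66.3%, against 36.2% of all probe sets) and for 426 of the 476 (89.5%, against 50.0%). The limits cut through a continuum. At the 2-fold limit HSP42 at 1.014 was still away and YBR053C at 0.9924 was not, with 42 probe sets within 0.1 log2 of it. At the 1.5-fold limit TPK2 at 0.5941 was between and SRY1 at 0.5833 was back. On the low side the 2-fold limit fell between YEL076C at -1.022 and SUN4 at -0.9959, and the 1.5-fold limit between NOP7 at -0.6083 and SPB1 at -0.5807.

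**Figure D2:**
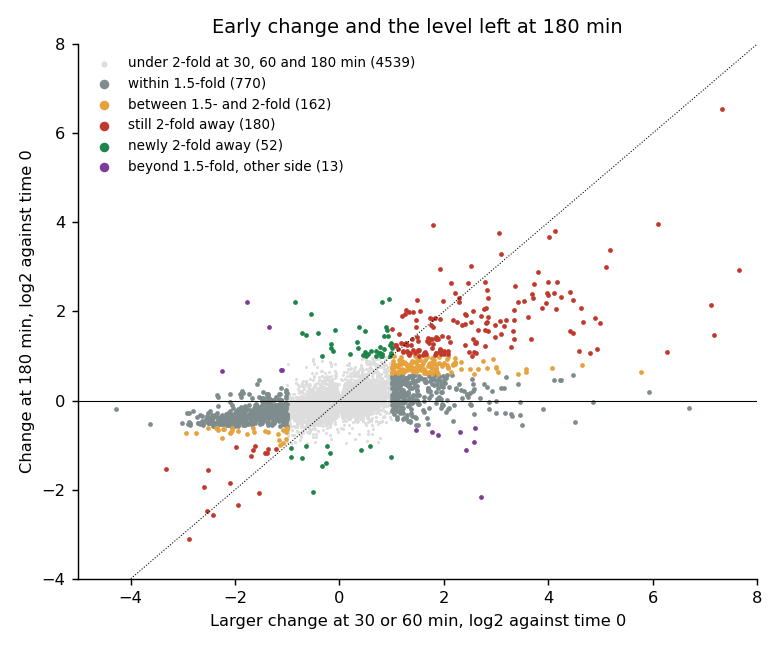
Each point is 1 probe set, with its larger log2 change against time 0 at 30 or 60 min on the horizontal axis and its log2 change at 180 min on the vertical axis; colours give the class at 180 min and the dotted line marks equal values. The 770 probe sets back within 1.5-fold spread along 0, the 180 still away sit mostly at the upper right, and TSA2 is the point above 6 on the vertical axis.

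The largest late rise was in TSA2 (YDR453C), a cytosolic peroxiredoxin that reduces peroxide with thioredoxin. Its signal was 5.33 and 5.96 in the H2O2 and MMS 0 min arrays and 12.98, 12.66 and 12.18 at 100, 140 and 180 min. All late arrays lay above both 0 min arrays by over 6 log2, and the 180 min array was the lowest of the 3. The rise was 6.96 ± 0.52 log2 (125-fold, adjusted p = 0.00026), and the early window did not differ from the late by the test (late minus early -0.15 ± 0.52, adjusted p = 0.883). TSA1, the abundant paralog, gave 12.95 and 12.93 at 0 min and 13.38, 13.18 and 12.94 late, a difference of 0.22 ± 0.13 (adjusted p = 0.239). Its 180 min value lay between those of the 0 min arrays. Whether probes of these paralogs read each other's mRNA, or whether signals this bright were near saturation, was not examined.

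DDR2 (YOL052C-A), a small multi-stress protein of the Msn2/4 programme, read 6.33 and 6.43 at 0 min and 11.77, 10.89 and 10.33 at 100, 140 and 180 min. Each late array was lower than the one before it and all stayed above 0 min, with a rise of 4.62 ± 0.46 log2 (24.5-fold, adjusted p = 0.0023). HXK1 (YFR053C), the hexokinase isoenzyme that glucose represses, read 8.25 and 8.53 at 0 min and 12.75, 12.60 and 12.20 late, up by 4.12 ± 0.62 (adjusted p = 0.00564). GPH1 (YPR160W), glycogen phosphorylase, read 5.34 and 5.56 and then 9.72, 9.59 and 9.13, up by 4.03 ± 0.71 (adjusted p = 0.00907). In both genes the 3 late arrays lay within 0.6 log2 of each other and above every 0 min value. GPM2, a phosphoglycerate mutase homologue, rose by 4.02 ± 0.42 (adjusted p = 0.00266), with 4.59 and 4.74 at 0 min and 8.60, 9.02 and 8.44 late. SOL4, a 6-phosphogluconolactonase, rose by 4.13 ± 0.63 (adjusted p = 0.00575) and RTC3 by 3.75 ± 0.58 (adjusted p = 0.00576).

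Other large rises were already waning within the window. YDL218W, an open reading frame of unstated function, read 4.31 and 4.26 at 0 min and 11.04, 9.25 and 7.20 at 100, 140 and 180 min, a rise of 4.88 ± 0.92 (adjusted p = 0.0123). FRM2, a nitroreductase-like protein, read 5.32 and 5.53 and then 11.40, 9.31 and 7.57, a rise of 4.0 ± 0.93 (adjusted p = 0.0232). The adjacent gene HBN1, of the same protein family, read 8.30 and 8.31 and then 12.55, 11.58 and 9.86, a rise of 3.03 ± 0.59 (adjusted p = 0.014). From 100 to 180 min YDL218W dropped by 3.84 log2 and FRM2 by 3.82, yet at 180 min they still stood 7.55- and 4.44-fold above time 0.

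**Figure D3:**
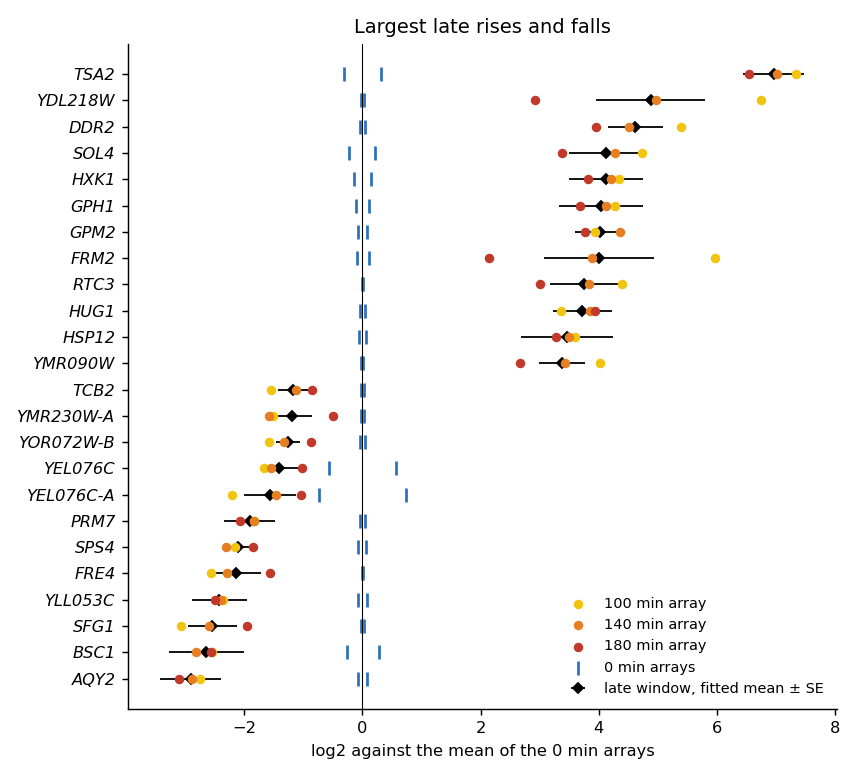
Points give the log2 change of each late array against the mean of the 0 min arrays for the 12 largest called rises and 12 largest called falls; blue ticks are the 0 min arrays, and diamonds with bars are the fitted late mean ± SE. TSA2 stands furthest out at 6.96, FRM2 and YDL218W spread widest over time, and the 0 min arrays of YEL076C-A and YEL076C lie furthest apart.

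Of 31 measured peroxide-scavenging genes, 11 rose and 1 fell in the late window, with a median of 0.47 log2 (all probe sets -0.05). Over all probe sets 9.43% rose and 6.12% fell, and the counts of each list below stand beside these shares. Besides TSA2, the mitochondrial peroxiredoxin PRX1 rose by 2.14 ± 0.29 (adjusted p = 0.00503), from 10.02 and 9.95 at 0 min to 12.62, 12.18 and 11.57. GPX1, a glutathione peroxidase homologue, rose by 1.22 ± 0.23 (adjusted p = 0.0119), with a flat 6.24 in both 0 min arrays and 7.58, 7.53 and 7.26 late. Both stood 2-fold or more above time 0 at 180 min. TRX2, the stress-responsive cytosolic thioredoxin, rose by 0.48 ± 0.14 (adjusted p = 0.0444) and was at 0.21 by 180 min. Thioredoxin reductase TRR1 had gone from 1.23 at 60 min to -0.39 at 180 min, with a late difference of 0.09 ± 0.30 (adjusted p = 0.846). Of the 12 members that were 2-fold above early, 4 were still away at 180 min, 1 was between, 5 were back and 2 were past. Over all probe sets high early, 27.3% were still away and 49.2% back, so this list lay near those shares.

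The 2 catalases differed in how much was left. CTT1, the cytosolic catalase of the general stress programme, read 6.67 and 6.90 at 0 min, 10.96 and 11.73 at 30 and 60 min, and 9.79, 8.50 and 7.94 late. It was still 2.22-fold above time 0 at 180 min, and its window mean of 1.95 ± 0.59 just missed the threshold (adjusted p = 0.0501). CTA1, the peroxisomal catalase, read 4.59 and 4.60, then 10.38 and 10.25, then 6.19, 5.32 and 5.23. Its late window was 4.74 ± 0.49 log2 below the early one (late minus early -4.74, adjusted p = 0.00127) and 0.98 ± 0.49 above time 0 (adjusted p = 0.191). Both catalases lay above both 0 min arrays in every late array.

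SRX1 (YKL086W), sulfiredoxin, which repairs over-oxidised peroxiredoxins, went from the height of the early response to the unstressed level. It read 5.63 and 6.26 at 0 min, 12.64 and 12.45 at 30 and 60 min, and 8.69, 6.67 and 5.77 at 100, 140 and 180 min. The 180 min value lay between those of the 0 min arrays, and the late window was below the early one (late minus early -5.50 ± 0.66, adjusted p = 0.00239). In the late against early comparison 511 of all probe sets (8.94%) were called, 239 higher (4.18%) and 272 lower (4.76%). Among peroxide-scavenging genes 7 of 31 were lower late than early and 0 higher.

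The 25 Yap1-dependent oxidoreductases and transporters had 8 rises and 1 fall in the late window (median 0.20) and 11 of 25 lower late than early. Of the 13 that were 2-fold above early, 6 were back at 180 min, 2 between, 3 still away (FRM2, HBN1 and GTT1) and 2 past. Over all probe sets high early, 49.2% were back and 27.3% still away, so this list lay near those shares. The genes given next are among those that returned. OYE3, an NADPH dehydrogenase of the old yellow enzyme family, read 6.02 and 6.29 at 0 min, 12.04 and 12.08 early, and 10.57, 7.54 and 6.34 late. At 180 min it was 1.14-fold from time 0, after 60.6-fold at its early height (late minus early -3.91 ± 0.92, adjusted p = 0.0324). AAD6, an aryl-alcohol dehydrogenase homologue, read 7.05 and 7.14, then 11.60 and 11.38, then 8.15, 6.89 and 6.62. It had dropped under both 0 min arrays by 140 min, with late minus early at -4.27 ± 0.41 (adjusted p = 0.00125). GTT2, a glutathione transferase, moved from 4.47 log2 above time 0 at 30 min to 2.66, 1.20 and 0.58 in the late arrays (late minus early -2.98 ± 0.48, adjusted p = 0.00847). YCR102C, a quinone oxidoreductase-like frame, was at 4.25 at 30 min and 0.46 at 180 min.

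Of 8 oxidant regulators that were 2-fold above early, 6 were back at 180 min (49.2% of all probe sets high early were). YAP1 mRNA stood 1.29 log2 above time 0 at 30 min and at 0.16, -0.38 and -0.33 in the late arrays (late against time 0 -0.18 ± 0.20, adjusted p = 0.543; late minus early -1.35 ± 0.20, adjusted p = 0.00633). SKN7 mRNA fell by 0.60 ± 0.17 (adjusted p = 0.0438). Among 21 oxidant regulators 2 rose and 1 fell, with a median of -0.08. The rises were XBP1, a stress-induced repressor, at 1.52 ± 0.36 (adjusted p = 0.0244), and YAP6 at 1.20 ± 0.16 (adjusted p = 0.00503). MSN4, which encodes a general stress activator, stood at 1.03, 0.82 and 0.47 in the late arrays (0.77 ± 0.40, adjusted p = 0.204).

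Small stress proteins stayed up as a group. Of 36 measured, 31 rose and 0 fell, with a median late difference of 1.76 log2. At 180 min 27 of 36 were 2-fold or more above time 0 (3.59% of all probe sets were). HSP12, a membrane-protecting hydrophilin-like protein, read 8.74 and 8.86 at 0 min and 12.39, 12.30 and 12.08 late. These late values lay within 0.4 log2 of each other and gave a rise of 3.46 ± 0.78 (adjusted p = 0.0212). TFS1, an inhibitor of carboxypeptidase Y, rose by 3.30 ± 0.67 (adjusted p = 0.0165) and MSC1 by 3.11 ± 0.54 (adjusted p = 0.00907). The desiccation-linked genes SIP18 and GRE1 reached their largest values last: SIP18 stood at 1.44, 1.64 and 2.22 and GRE1 at 1.52, 1.71 and 2.03 in the late arrays (rises of 1.76 ± 0.36 and 1.75 ± 0.27, adjusted p = 0.0167 and 0.00576). HSP30, a plasma membrane protein, did the opposite. It read 7.97 and 8.11 at 0 min, 12.91 and 12.25 early and 9.36, 8.54 and 8.02 late, and its 180 min value lay between those of the 0 min arrays (late minus early -3.94 ± 0.63, adjusted p = 0.0084).

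Genes of storage carbohydrates also stayed up: 17 of 22 trehalose and glycogen genes rose and 0 fell, with a median of 1.20 log2. Of the 18 that were 2-fold above early, 11 were still away at 180 min, 5 between and 2 back. Of all probe sets high early 27.3% were still away. PGM2, the phosphoglucomutase that feeds both stores, read 6.78 and 7.04 at 0 min and 10.76, 10.14 and 9.32 late (3.16 ± 0.66, adjusted p = 0.0174). TSL1, a regulatory subunit of trehalose synthase, rose by 2.69 ± 0.39 (adjusted p = 0.0055) and GSY1, a glycogen synthase, by 2.38 ± 0.61 (adjusted p = 0.0303). All late arrays of these genes lay above both 0 min arrays, and the 180 min array was the lowest of the 3. The breakdown enzyme GPH1 and the synthesis enzymes were up together.

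Hexose uptake and phosphorylation split by gene. Of 24 members 7 rose and 0 fell, with a list median of only 0.14. Beside HXK1, the other glucose-repressed kinases GLK1 and EMI2 rose by 2.14 ± 0.30 (adjusted p = 0.00529) and 2.19 ± 0.39 (adjusted p = 0.00917). The high-affinity transporter HXT7, read by a probe set marked as shared between similar sequences, rose by 2.80 ± 0.58 (adjusted p = 0.0167). HXT4, a transporter induced at low glucose, was a late case: it read 8.44 and 8.40 at 0 min, 8.08 and 8.80 early and 10.23, 10.32 and 10.08 late. All late arrays exceeded all 0 min and early ones, and the late window was above the early by 1.77 ± 0.26 (adjusted p = 0.00586).

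Genes that supply NADPH, the reductant of thioredoxin and glutathione systems, gave 9 rises and 0 falls among 24 (median 0.44). Apart from SOL4, the rises were led by GCY1, a glycerol dehydrogenase homologue (2.72 ± 0.57, adjusted p = 0.0174), NQM1, a transaldolase (2.22 ± 0.37, adjusted p = 0.00769), and GND2, the minor 6-phosphogluconate dehydrogenase (2.06 ± 0.38, adjusted p = 0.0112).

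In the citric acid cycle 13 of 17 genes rose and 0 fell, with a median of 0.91 log2. CIT1, mitochondrial citrate synthase, read 10.85 and 10.95 at 0 min, 11.41 and 12.17 early and 12.44, 12.39 and 12.19 late (1.44 ± 0.21, adjusted p = 0.0055). Isocitrate dehydrogenase IDH1 rose by 1.28 ± 0.19 (adjusted p = 0.00564), succinate dehydrogenase SDH2 by 1.19 ± 0.22 (adjusted p = 0.0105) and malate dehydrogenase MDH1 by 1.09 ± 0.21 (adjusted p = 0.0123). List medians were 0.35 and 0.80 at 30 and 60 min and 0.89, 0.94 and 0.74 at 100, 140 and 180 min, so the group stood higher in each late array but the last than at 60 min.

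Respiratory chain genes had smaller values in the same direction, with 13 of 36 rising, 0 falling and a median of 0.33. All late arrays lay above both 0 min arrays for 35 of 36, against 29.0% of all probe sets. The largest rises were of alternative isoforms known for hypoxia or stress: CYC7, cytochrome c isoform 2 (3.17 ± 0.39, adjusted p = 0.00418), and COX5B (2.73 ± 0.32, adjusted p = 0.00418). The list medians were -0.03 and 0.03 at 30 and 60 min and 0.25, 0.34 and 0.36 later, with the highest at 180 min. QCR10, a subunit of complex III, read 9.93 and 9.75 at 0 min and 10.92, 10.97 and 10.96 late, and first passed 2-fold in the late window (1.11 ± 0.17, adjusted p = 0.00564). Of 26 genes of gluconeogenesis, the glyoxylate cycle and fatty acid oxidation 6 rose and 1 fell. The carnitine carrier CRC1 rose by 2.16 ± 0.39 (adjusted p = 0.0105), the thiolase POT1 by 1.88 ± 0.45 (adjusted p = 0.0259) and SPS19, a peroxisomal dienoyl-CoA reductase, by 1.61 ± 0.26 (adjusted p = 0.00673).

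**Figure D4:**
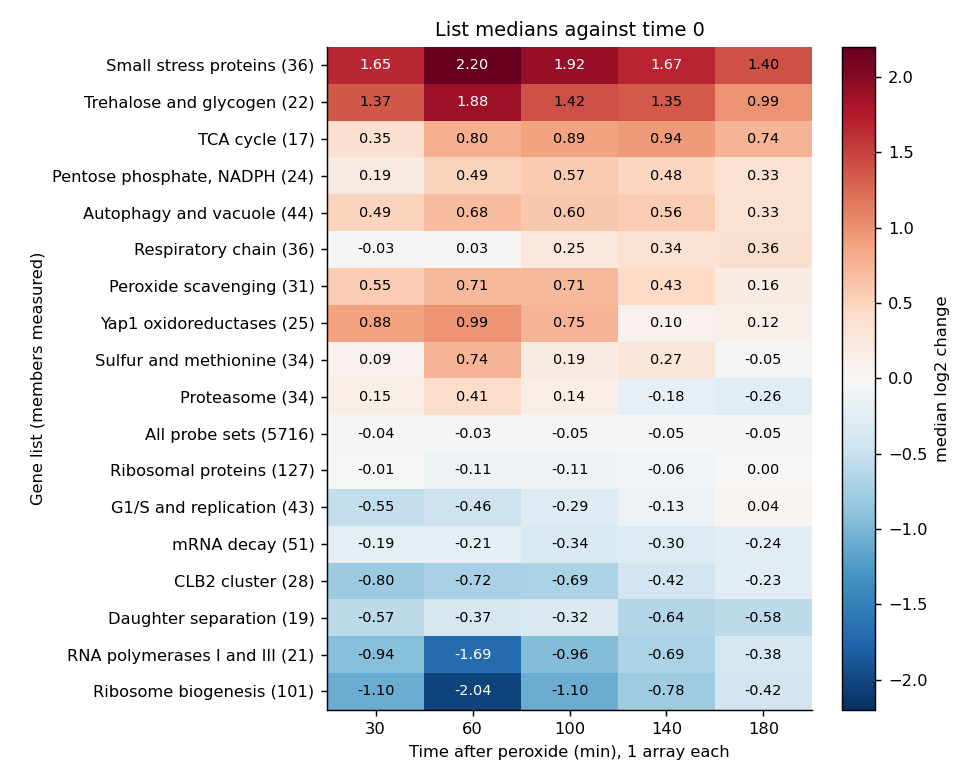
Cells give the median log2 change against time 0 of each gene list (rows, with the number of members measured) at each time after peroxide (columns, 1 array each), in red above and blue below 0. Small stress proteins stay high at 1.40 at 180 min, Yap1 oxidoreductases go from 0.99 to 0.12, and ribosome biogenesis from -2.04 at 60 min to -0.42.

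Of 27 damage-response genes, among them those of ribonucleotide reductase, which makes DNA precursors, 8 rose and 2 fell, with a median of 0.19. HUG1 (YML058W-A), a small inhibitor of ribonucleotide reductase and a marker of the Mec1 checkpoint, read 6.70 and 6.62 at 0 min, 6.64 and 8.45 early and 10.01, 10.51 and 10.60 late. The highest value was at 180 min, and the late window exceeded both time 0 (3.72 ± 0.50, adjusted p = 0.00503) and the early window (2.83 ± 0.50, adjusted p = 0.0113). RNR3, the damage-inducible large subunit, read 6.19 and 6.30 and then 8.90, 9.02 and 8.65 late (2.61 ± 0.39, adjusted p = 0.00564). RNR2, a small subunit, read 11.72 and 11.77 and then 12.24, 12.43 and 12.44 (0.63 ± 0.11, adjusted p = 0.0103). In these 3 genes no late array overlapped a 0 min array. PHR1, photolyase, rose by 0.97 ± 0.24 (adjusted p = 0.028) but was back at 0.55 by 180 min, and HST3, a sirtuin, fell by 0.92 ± 0.22 (adjusted p = 0.0244).

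Vacuolar and autophagy genes numbered 44, of which 19 rose and 0 fell, with a median of 0.49. APE1, vacuolar aminopeptidase I, read 8.04 and 7.74 at 0 min and 11.57, 11.04 and 10.32 late (3.09 ± 0.40, adjusted p = 0.0049). The receptor gene ATG34 rose by 2.43 ± 0.35 (adjusted p = 0.0055), ATG39, a receptor for nuclear envelope turnover, by 2.21 ± 0.34 (adjusted p = 0.00575) and ATG31 by 1.84 ± 0.25 (adjusted p = 0.00503). In mRNA decay 13 of 51 members fell and 3 rose, with a median of -0.29 and 27 lower at an unadjusted p under 0.05. RRP43 was among the called falls (-0.76 ± 0.13, adjusted p = 0.00898). The rises included the scavenger decapping enzyme DCS1 (1.31 ± 0.23, adjusted p = 0.00905). Its paralog DCS2, also in the small stress protein list, rose by 2.91 ± 0.56 (adjusted p = 0.0134). Of 14 vitamin B6 and B1 genes 6 rose and 0 fell (median 0.38). SNO1, a vitamin B6 gene, read 5.49 and 5.22 at 0 min and 8.28, 8.45 and 8.36 late (3.01 ± 0.36, adjusted p = 0.00418), and its neighbour SNZ1 8.86 and 8.93 and then 10.75, 10.80 and 10.75 (1.87 ± 0.37, adjusted p = 0.0154). SNZ3, whose probe set is of the shared type, stood at 1.84 at 60 min and 1.42, 1.04 and 1.07 late (1.18 ± 0.27, adjusted p = 0.0234). THI13, a thiamine gene whose probe set is shared with near-identical copies, rose by 1.57 ± 0.23 (adjusted p = 0.0055). Of 9 stationary-phase markers, 6 rose and 0 fell (median 1.47), and 7 were 2-fold or more above time 0 at 180 min (3.59% of all probe sets were). This list overlaps others: the 6 were SNO1, SNZ1 and SNZ3, the small stress protein genes GRE1 and SIP18, and FMP45. SPG1, SPG4 and SPG5 were not called (SPG4 at 1.47 ± 0.55, adjusted p = 0.0956).

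Of 101 ribosome assembly factors 98 stood 2-fold or more below time 0 early, and at 180 min 91 of these were back, 7 between and 0 still away (90.3% of all probe sets low early were back). Their median was -1.10 and -2.04 at 30 and 60 min and -1.10, -0.78 and -0.42 at 100, 140 and 180 min. In the late window only 3 of 101 fell by the test, with 30 at an unadjusted p under 0.05, while all late arrays of all 101 lay below both 0 min arrays (38.9% of all probe sets did). RIO1, a kinase of 40S maturation, fell by 1.11 ± 0.31 (adjusted p = 0.0418) and stood at -0.71 at 180 min. In the late against early comparison 6 of 101 were higher and 0 lower.

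Values of single factors show the course. DHR2, a helicase of 18S rRNA synthesis, read 9.46 and 9.40 at 0 min, 6.73 and 5.80 early and 7.68, 8.14 and 8.90 late. It climbed in each late array but stayed under both 0 min arrays, with late minus early at 1.97 ± 0.49 (adjusted p = 0.0378) and late against time 0 at -1.19 ± 0.49 (adjusted p = 0.122). UTP23 read 11.19 and 11.18 and then 9.56, 10.05 and 10.68 late, PXR1 10.89 and 10.83 and then 9.38, 9.82 and 10.33. HCA4 read 9.20 and 9.19 and then 7.74, 8.24 and 8.71. In each the 180 min array was the nearest to time 0 and still below it, by between 0.48 and 0.53 log2. DBP2, an RNA helicase, was slower, at -2.49, -1.86 and -0.85. Of 21 subunits of RNA polymerases I and III, 19 were 2-fold below early and all 19 were back (90.3% of all probe sets low early were). RPC53 fell by 0.86 ± 0.25 (adjusted p = 0.048) in the window and stood at -0.45 at 180 min. With median centring or quantile normalization of the arrays this list had 0 falls, and ribosome biogenesis 2 or 1, with medians still below 0.

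Of 127 ribosomal protein genes measured 1 fell and 0 rose, with list medians of -0.11, -0.06 and 0.00 at 100, 140 and 180 min. The exception was RPL41A, read by a shared probe set, at 9.41 and 8.99 at 0 min and 8.14, 8.07 and 8.14 late (-1.08 ± 0.23, adjusted p = 0.0189). Of 34 translation factors 3 fell and 1 rose (6.12% and 9.43% of all probe sets did). RPG1, an eIF3 subunit, fell by 0.57 ± 0.17 (adjusted p = 0.0454).

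AAH1 (YNL141W), adenine deaminase, had the deepest early value of the returning genes. It read 10.42 and 10.30 at 0 min, 8.86 and 6.09 at 30 and 60 min, and 8.23, 9.23 and 10.17 late. At 180 min it was 1.14-fold below time 0, from 19.3-fold at 60 min, but these wide steps left neither test past the threshold (late against time 0 -1.15 ± 0.87, adjusted p = 0.366; late minus early 1.74 ± 0.87, adjusted p = 0.222). YNL162W-A, a small frame of unstated function, went from -2.25 and -2.35 early to -1.20, -0.43 and 0.12 (late minus early 1.79 ± 0.42, adjusted p = 0.0311).

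**Figure D5:**
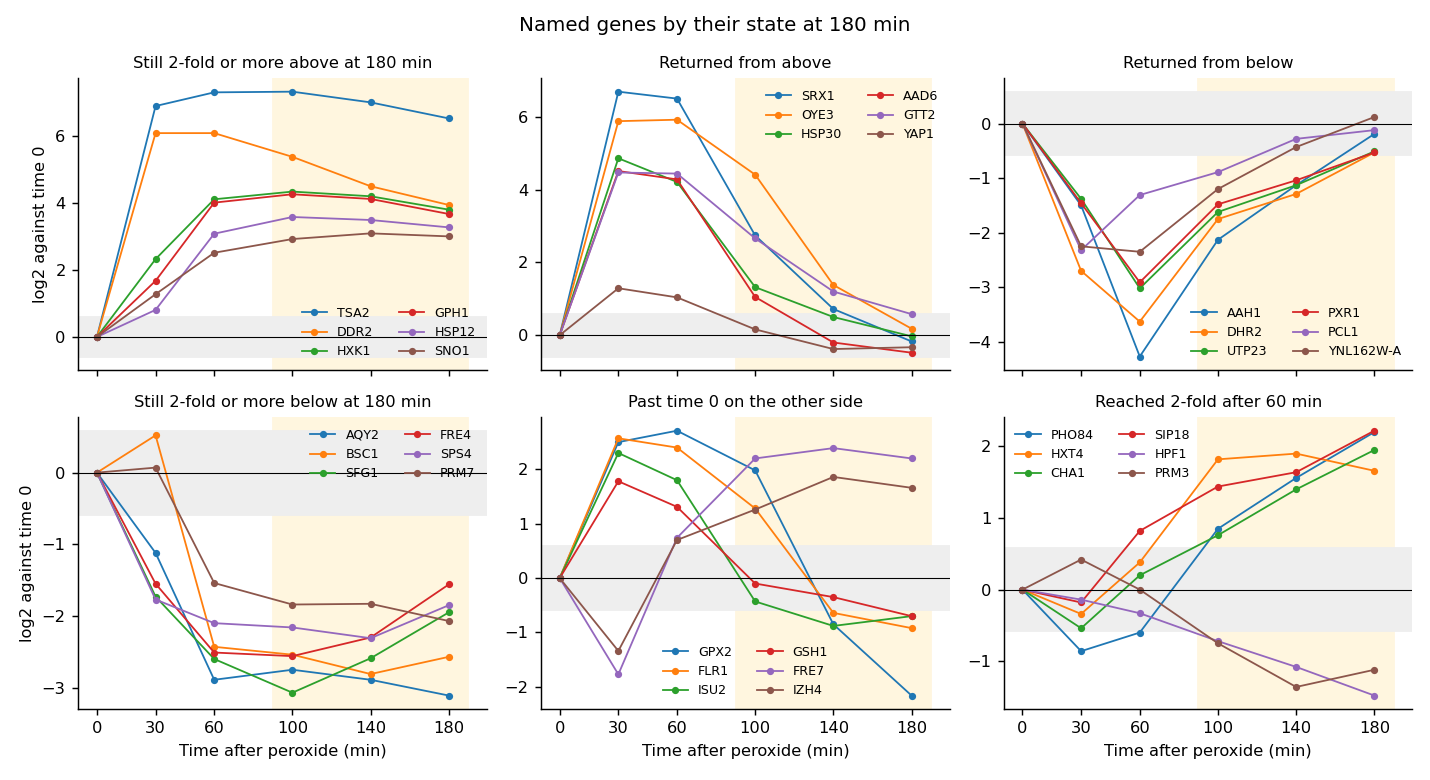
Lines follow log2 change against time 0 (vertical axis, scales differ) over minutes after peroxide for 6 genes of each state at 180 min; the grey band is within 1.5-fold of time 0 and the yellow area is the late window. TSA2 stays near 7, SRX1 returns from 6.69 to -0.17, AAH1 from -4.27 to -0.19, GPX2 crosses to -2.16 and PHO84 reaches 2.20.

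Of 43 G1/S and replication genes 10 were 2-fold below early, and all 10 were back at 180 min (90.3% of all probe sets low early were). The list median moved from -0.55 at 30 min to 0.04 at 180 min, and 11 were higher late than early. PCL1, a G1 cyclin, read 8.74 and 8.59 at 0 min, 6.35 and 7.35 early and 7.77, 8.39 and 8.55 late (late minus early 1.39 ± 0.36, adjusted p = 0.0435). In the CLB2 cluster of mitotic genes 4 of 28 fell and 1 rose (median -0.44), and 9 of the 11 that were 2-fold below early were back, against the same 90.3%. CLB2 (YPR119W), the main mitotic cyclin, read 9.03 and 9.08 at 0 min and 7.36, 7.98 and 8.35 late, a fall of 1.16 ± 0.32 (adjusted p = 0.0385) with the 180 min array nearest to time 0. SFG1, a regulator of pseudohyphal growth, read 9.30 and 9.34 and then 6.25, 6.72 and 7.37 (-2.54 ± 0.41, adjusted p = 0.00738) and was the 1 member still 2-fold below. Daughter-cell separation genes had list medians of -0.57 and -0.37 at 30 and 60 min and -0.32, -0.64 and -0.58 in the late arrays, and 1 of 19 fell. The glucanase gene SCW11 stood at -0.61, -1.20 and -1.02 and DSE1 at -0.26, -0.86 and -1.03, and neither passed the test (adjusted p = 0.142 and 0.123). Of 16 origin-licensing genes 2 fell, MCM6 among them (-0.51 ± 0.13, adjusted p = 0.0326), and of 9 histone genes HTZ1, the H2A.Z variant, fell (-0.64 ± 0.18, adjusted p = 0.0436), though not after quantile normalization.

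Few genes stayed low. AQY2 (YLL052C), an aquaporin, had the largest fall: its 0 min mean was 9.93, with 9.86 in the MMS course, and it read 7.18, 7.04 and 6.82 at 100, 140 and 180 min. Every late array lay more than 2.6 log2 below both 0 min arrays and the lowest was the last (-2.91 ± 0.51, adjusted p = 0.00905). YLL053C, an overlapping frame that continues the same locus, fell by 2.42 ± 0.47 (adjusted p = 0.0139), and the overlapping signals are not independent. BSC1 read 5.28 and 5.83 and then 3.01, 2.74 and 2.99 (-2.64 ± 0.64, adjusted p = 0.0265), at the dim end of the array. Its neighbour PRM7 read 8.66 and 8.56 and then 6.76, 6.77 and 6.54 (-1.91 ± 0.43, adjusted p = 0.0212), and a second probe set of PRM7 gave -2.39. Both were flat or higher at 30 min and low from 60 min on.

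FRE4, a ferric reductase, fell by 2.14 ± 0.43 (adjusted p = 0.0156), with 7.56 and 7.57 at 0 min and 5.0, 5.26 and 6.01 late. SPS4, a sporulation gene 1 gene away from SFG1, read 5.37 and 5.24 and then 3.15, 3.0 and 3.46 (-2.11 ± 0.21, adjusted p = 0.0023). Like those of BSC1, the late signals of SPS4 were at the dim end of the array. The subtelomeric overlapping frames YEL076C-A and YEL076C fell by 1.57 ± 0.44 and 1.41 ± 0.32 (adjusted p = 0.0391 and 0.0225), but their 0 min arrays differed, at 6.71 and 8.19 and at 5.05 and 6.17. Without the MMS 0 min array their differences were -0.83 and -0.86, not called. FLO11, a flocculin of filamentous growth, fell by 1.11 ± 0.28 (adjusted p = 0.0296), and 5 of 16 aquaporin, flocculation and filament genes fell in all, with 0 rises.

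Among the genes that first reached 2-fold after 60 min was PHO84 (YML123C), the high-affinity phosphate transporter. It read 8.83 and 9.10 at 0 min, 8.11 and 8.37 early and 9.81, 10.53 and 11.17 late, below 0 min early and above it in every late array. The rise was 1.54 ± 0.44 (adjusted p = 0.0438) and the late window exceeded the early by 2.27 ± 0.44 (adjusted p = 0.0162). CHA1, the catabolic serine deaminase, read 6.83 and 6.85, then 6.30 and 7.04, then 7.60, 8.24 and 8.79 (1.37 ± 0.32, adjusted p = 0.0239). SRT1, a cis-prenyltransferase, was level until 100 min at 0.06 and then at 1.17 and 1.59, and did not pass the test (0.94 ± 0.35, adjusted p = 0.0968). DIA3 rose by 1.39 ± 0.29 (adjusted p = 0.0174).

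On the low side the late arrivals included HPF1 (YOL155C), a cell wall mannoprotein, which read 9.20 and 9.37 at 0 min, 9.15 and 8.96 early and 8.57, 8.21 and 7.81 late. It was lower in each array than in the one before it and furthest away at the last, 2.79-fold below (-1.09 ± 0.18, adjusted p = 0.00782). MEP1, an ammonium permease, stood at 0.98 at 30 min and at -0.59, -1.13 and -1.26 late (-1.0 ± 0.22, adjusted p = 0.0212). The pheromone-regulated genes PRM3 and PRM4 fell by 1.08 ± 0.22 and 0.86 ± 0.23 (adjusted p = 0.0166 and 0.0346). In the mating list 5 of 26 fell and 0 rose, with a median of -0.33. RSB1, at -1.06, -0.69 and -1.29, did not pass the test (adjusted p = 0.0791).

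A small set crossed to the other side of time 0. GPX2 (YBR244W), a glutathione peroxidase that Yap1 induces, read 10.14 and 10.15 at 0 min, 12.64 and 12.85 early and 12.12, 9.29 and 7.98 late. It was 2-fold or more above time 0 until 100 min and 4.46-fold below at 180 min, so its window mean of -0.34 ± 0.89 (adjusted p = 0.803) averages values of opposite sign. FLR1, a multidrug transporter, went from 2.57 at 30 min to 1.28, -0.64 and -0.92 in the late arrays. GSH1, the first enzyme of glutathione synthesis, went from 1.78 to -0.10, -0.35 and -0.70. Both were lower late than early (-2.58 ± 0.51, adjusted p = 0.0162, and -1.93 ± 0.19, adjusted p = 0.00127). ISU2 (YOR226C), an iron-sulfur cluster scaffold, read 10.35 and 10.15 at 0 min, 12.56 and 12.06 early and 9.82, 9.37 and 9.55 late, above 0 min early and below it late (-0.67 ± 0.18, adjusted p = 0.0325). DRE2, another iron-sulfur cluster factor, stood at 1.88 at 30 min and -0.78 at 180 min (-0.69 ± 0.28, adjusted p = 0.121).

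In the opposite direction FRE7 (YOL152W), a reductase induced by low copper, read 7.91 and 7.55 at 0 min, 5.96 and 8.47 early and 9.93, 10.12 and 9.93 late (2.26 ± 0.55, adjusted p = 0.027). IZH4 stood at -1.34 at 30 min and 1.26, 1.86 and 1.66 late (1.59 ± 0.48, adjusted p = 0.0498). FUR4, uracil permease, was at -2.24 and -1.25 early and 0.66 at 180 min, higher late than early (2.11 ± 0.39, adjusted p = 0.0129) with no late difference from time 0 by the test (0.37 ± 0.39, adjusted p = 0.528). In all, 6 of 37 iron and copper genes rose and 2 fell (median 0.07), where 9.43% and 6.12% of all probe sets did. The rises included the copper transporter CTR1 (1.08 ± 0.24, adjusted p = 0.021) and the cell wall siderophore protein FIT2 (1.17 ± 0.33, adjusted p = 0.0416). Among 23 phosphate genes 3 rose and 1 fell, beside the same shares of all probe sets.

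Of 34 sulfur and methionine genes 15 were 2-fold above time 0 early, and at 180 min 13 of these were back, 2 between and 0 still away (49.2% of all probe sets high early were back). In the window 0 of 34 rose (3 at an unadjusted p under 0.05) and 2 fell. MET28, a cofactor of the activator Met4, stood at 3.18 and 3.08 early and 1.51, 1.72 and 0.52 late (late minus early -1.88 ± 0.41, adjusted p = 0.0235). MET31, another Met4 cofactor, fell by 0.80 ± 0.12 (adjusted p = 0.00598). Of 34 proteasome genes, which include the activator RPN4, limma called 0. At an unadjusted p under 0.05 RPN14 was higher and RPN4 lower. RPN4 was also lower late than early (-1.03 ± 0.16, adjusted p = 0.00837). Of 28 Hsf1-dependent chaperones 5 rose and 0 fell. HSP104, the disaggregase, rose by 1.14 ± 0.18 (adjusted p = 0.00598) and stood at 0.88 at 180 min, and HSP82, an Hsp90, rose by 1.12 ± 0.29 (adjusted p = 0.0315) and was back at 0.55.

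The next lists had few or no calls, or calls near the share of all probe sets (9.43% rose and 6.12% fell). Of 53 Gcn4-dependent amino acid genes 1 rose and 0 fell, with 8 and 4 at an unadjusted p under 0.05. Among 27 ergosterol genes 1 fell, ECM22, a sterol regulator (-0.84 ± 0.14, adjusted p = 0.00738). Of 33 purine and pyrimidine genes 2 rose, one of them URA10 (1.54 ± 0.34, adjusted p = 0.0207). In 36 cell wall genes 4 rose, among them PIR3 (2.18 ± 0.41, adjusted p = 0.0121) and SPI1 (1.91 ± 0.31, adjusted p = 0.00767). Markers of mating type and of haploid cells showed little. Of the stationary-phase markers above 6 of 9 rose, of which only FMP45 was in no other list. Limma called none of 5 a-cell, 4 alpha-cell and 6 haploid genes, with 0, 0 and 1 at an unadjusted p under 0.05, and the late medians were -0.08, 0.11 and -0.25. The alpha-factor genes MF(ALPHA)1 and MF(ALPHA)2 read between 12.41 and 12.91 in all 5 arrays compared. Of 15 sporulation genes 3 rose and 1 fell, SPS100 (1.24 ± 0.31, adjusted p = 0.0279) and SPS4 among them, and with quantile normalization 2 rose and 2 fell.

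The late state was also set against the MMS course at the same times, where 4029 probe sets (70.5%) differed, 1787 higher (31.3%) and 2242 lower (39.2%) after H2O2. Against that background, 87 of the 163 probe sets still up at 180 min were lower after H2O2 than after MMS and 12 were higher. TSA2 and HUG1 did not differ by the test (0.15, adjusted p = 0.778, and 0.81, adjusted p = 0.128). SRX1 and AAD6, both back at time 0 by 180 min, were lower after H2O2 than after MMS (differences of -4.87 and -5.14 log2, adjusted p = 8.18e-05 and 2.9e-05). DDI3, a cyanamide hydratase that MMS induces and whose probe set is of the shared type, differed by -6.27 (adjusted p = 3.4e-06), although it rose after H2O2 too (1.35 ± 0.32, adjusted p = 0.0243). Ribosome biogenesis genes were higher after H2O2 in 93 of 101, ribosomal protein genes in 124 of 127 and respiratory chain genes in 26 of 36. All 34 proteasome genes were lower. Among genes that arrived late, PHO84 was 2.69 log2 higher after H2O2 than after MMS (adjusted p = 0.000234) and HXT4 1.86 (adjusted p = 9.77e-05).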

How the data were processed

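The authors deposited log2 signals per probe set; the submitters' processing notes name RMA as the method, in a version not given in the sources used here. Per the labels' protocols, total RNA was copied to cDNA with poly(T) primers and biotin-labelled cRNA was hybridised. Of 5900 probe sets, 5716 were not controls; 5498 had 1 gene in the platform annotation and 218 none, giving 5449 genes, and RefSeq updated 12 symbols. Gene lists use the brightest of a gene's probe sets.

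A model with 5 groups (time 0, early and late H2O2, early and late MMS) was fitted in limma (version 3.58.1, R version 4.3.3) over the 12 arrays, which left 7 residual and 2.74 prior degrees of freedom, a median residual SD of 0.169 log2 and Benjamini-Hochberg adjustment over 5716 probe sets. P-values are two-sided and rest on the spread within all 5 groups, pooled for each probe set, which is mostly spread between time points. An SE is therefore not the spread of the late arrays alone. For HSP12 the late SD was 0.16 log2 and the SE 0.78, with 9.61 and 11.89 at 30 and 60 min of H2O2. On simulated data with 200 changed probe sets, the late contrast recovered 77% at a log2 change of 1 and 35% at 0.5, with 7 false among 119 calls. These data had independent noise and a constant late shift, without trends inside a window or correlation of arrays at the same time. They therefore cannot give the share of false calls in the real arrays. RMA fits probes jointly and shrinks differences of dim and saturated probe sets; the number of arrays limits the precision.

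Members and lists were chosen with earlier results of these data known. Genes named are the 12 largest called rises and falls, the 6 furthest in each return class, the 6 largest changes from 100 to 180 min, up to 4 members per list with the largest late change, and a fixed set, in all 198 genes. Genes at the class limits are given beside them. Alternatives changed the 0 min arrays, window, scaling, filter and model.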

Additional observations from a re-analysis of the deposited data

Results flagged for a closer look

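ISU2 had late and early H2O2 differences of opposite sign that both passed the test: it was above time 0 in the early window and below it in the late window, and the late minus early difference was -2.73 ± 0.18 log2 (SE, adjusted p = 0.000198). Its late level also differed between the stresses, with late H2O2 minus late MMS at -3.21 (adjusted p = 4.88e-06). Neither 0 min array overlapped the early or late H2O2 arrays. The late difference of ISU2 from time 0 was called in 7 of 15 alternative settings. ISU1 and ISU2 encode paralogous scaffolds, and whether their probes read each other's mRNA was not examined.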

How the results depend on the processing

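All 889 late calls kept their direction under every alternative in which the probe set was tested, while their number depended on the arrays. Leaving out arrays or narrowing the late window could not have changed a direction, because the late arrays of every call lay outside both 0 min arrays. Dropping probe sets, fitting only the 5 arrays or moderating the spread otherwise left each difference unchanged. That leaves rescaling of the arrays and the time block as alternatives that could have changed a direction. The totals were 5 (4 higher, 1 lower) with the H2O2 course's 0 min array only, 6 (5 and 1) with the 180 min array alone as the late group, 27 (21 and 6) with 140 and 180 min, 1931 (918 and 1013) with only the 5 arrays compared, and 470 (345 and 125) with time point as a random block. Leaving out 1 array gave between 5 and 915 calls (4 to 537 higher, 1 to 378 lower). A group left with 1 array is assumed to vary like the others. Late against early gave 16 calls (4 and 12) with 140 and 180 min, 321 (122 higher) without the dimmest 25% of probe sets, and 86 to 583 with 1 array left out (19 to 280 higher, 67 to 303 lower). Late H2O2 against late MMS gave 3640 to 3931 calls with 1 array left out, 3228 without the dimmest 25%, 3543 with 140 and 180 min and 4361 with the time block. Median centring gave 880 late calls (579 and 301), quantile normalization 872 (482 and 390) and 1 probe set per gene 839. Of 198 named genes 106 were called, and 4 of these without the H2O2 0 min array and 3 without that of MMS. Still-up probe sets numbered 73 at a 3-fold limit and 105 without the dimmest. Still-down ones numbered 26 against the MMS 0 min array, 6 at 3-fold and 3 without the dimmest. Back-from-above counts were 164 at the stricter limit for back, 107 at 3-fold and 69 from those away at 100 min, and back-from-below counts 219, 221 and 180. The cause of these shifts was not tested beyond the fewer arrays or probe sets. No paired analysis was possible for late against time 0, because these groups share no time point and replicate numbers only follow accession order. Late H2O2 and late MMS share their times, which the random block above uses (correlation 0.345).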
